A study of Homo sapiens with 12 samples.

Results

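The 9 genes described here encode transcription factors that have been tied to the locus of CFTR, the gene of the chloride and bicarbonate channel of airway epithelium. They are CTCF, FOXA1, FOXA2, CEBPB, EHF, KLF5, CDX2, IRF1 and IRF2. They were taken from a list of names and not by their values, although earlier results of these data were known when they were chosen. All 9 were among the 18417 genes measured, each through 1 probe set. The study transfected Calu-3, a human line of airway epithelial origin, with 1 of 3 RNAs and measured RNA levels on 12 arrays. In 3 arrays the cells had received a small interfering RNA (siRNA) against SIN3A, in 3 arrays a mimic of the microRNA miR-138, and in 6 arrays the control oligonucleotide NC1 (a scrambled control, Scr, by its source name). All cells went through the same lipid transfection, no group was left untransfected, and every value comes from a single line, whose extraction notes speak of primary cultures although the labels name Calu-3. Dose and time of harvest were not stated in the labels used here.

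CFTR has a promoter without a TATA box, and much of its cell type specificity is known to come from enhancers inside its introns and from looping of the locus. CTCF is the zinc finger protein that, with the cohesin ring, sets the boundaries of such loops. FOXA1 and FOXA2 are pioneer factors that open enhancers in endoderm, and CDX2 is the homeodomain factor of intestinal epithelium, where CFTR is also active. EHF and KLF5 are factors of epithelial identity, CEBPB belongs to the C/EBP family of acute phase and differentiation genes, and IRF1 and IRF2 are an activator and a mainly repressive partner in the interferon response. SIN3A holds together a repressor complex with histone deacetylases, which DNA-binding factors bring to genes. The comparisons ask whether RNA levels of these factors moved along with CFTR after SIN3A siRNA or the miR-138 mimic.

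The mature miR-138 is shown because its seed, in capitals (bases 2 to 8), is the part that pairs with target RNAs. RefSeq (GRCh38.p14) places the same 23 bases at chr3:44114234-44114256 (MIR138-1) and at chr16:56858527-56858549 (MIR138-2), both on the plus strand.
hsa-miR-138-5p: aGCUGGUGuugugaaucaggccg

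The 250 bases before the start of CFTR are shown because they are where binding motifs of the factors could lie. Those of CTCF, FOXA1 and CEBPB, which are among the factors that the results below describe, are shown with them. The RefSeq table of promoters (GRCh38.p14) held 7 of the 9 factors, and the windows of EHF were searched too but are not shown. The windows shown lie at chr7:117479775-117480024 on the plus strand (CFTR), chr16:67562276-67562525 on the plus strand (CTCF), chr14:37595250-37595499 on the minus strand (FOXA1) and chr20:50190333-50190582 on the plus strand (CEBPB, the upstream of its 2 starts). Each is written 5′ to 3′ along the gene, and capitals mark every match to a motif searched.
CFTR: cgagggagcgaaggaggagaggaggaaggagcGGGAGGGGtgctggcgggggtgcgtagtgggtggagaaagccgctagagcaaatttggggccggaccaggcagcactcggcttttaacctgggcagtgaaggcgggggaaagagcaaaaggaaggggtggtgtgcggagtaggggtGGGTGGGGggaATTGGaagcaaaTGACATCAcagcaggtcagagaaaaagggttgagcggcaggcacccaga
CTCF: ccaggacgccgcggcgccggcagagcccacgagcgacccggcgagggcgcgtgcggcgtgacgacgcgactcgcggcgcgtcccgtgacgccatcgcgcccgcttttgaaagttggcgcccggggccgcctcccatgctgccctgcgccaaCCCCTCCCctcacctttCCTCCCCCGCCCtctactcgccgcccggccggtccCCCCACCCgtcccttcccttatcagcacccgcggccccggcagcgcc
FOXA1: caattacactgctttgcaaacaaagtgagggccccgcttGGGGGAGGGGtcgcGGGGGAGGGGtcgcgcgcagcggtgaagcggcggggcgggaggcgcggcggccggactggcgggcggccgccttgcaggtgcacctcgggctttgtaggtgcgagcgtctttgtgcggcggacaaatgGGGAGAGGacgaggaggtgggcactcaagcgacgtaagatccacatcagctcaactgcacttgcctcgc
CEBPB: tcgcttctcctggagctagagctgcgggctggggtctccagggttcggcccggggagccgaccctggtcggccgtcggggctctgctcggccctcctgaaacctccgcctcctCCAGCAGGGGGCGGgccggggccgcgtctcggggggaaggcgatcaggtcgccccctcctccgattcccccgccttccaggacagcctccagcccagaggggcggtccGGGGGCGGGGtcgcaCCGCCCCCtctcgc

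The motifs were searched on both strands in these 250 bases. Searched were the core motif of CTCF and the paired motif of IRF1 and IRF2 (by name alone), TGTTTAC for FOXA1 and FOXA2, TTGCNNAA for CEBPB, CGGAAG for the ETS family to which EHF belongs, GGGNGNGG for KLF5, TTTATNG for CDX2, CCAAT for the CCAAT box and TGACNTCA for CREB. The CFTR window held 2 matches to the KLF5 motif, at 218 to 211 and 72 to 65 bases before the start, 1 inverted CCAAT box at 61 to 57 and 1 CREB match at 49 to 42. A KLF5 match stood in 53.4% of all 35116 promoter windows, a CCAAT box in 32.0% and a CREB match in 6.87%. The motifs of CTCF, FOXA1 and FOXA2, CEBPB, EHF, CDX2, and IRF1 and IRF2 had no match in the CFTR window, which says only that these letters are not there. The CTCF window held 4 KLF5 matches and the FOXA1 window 5. The CEBPB window held 4 KLF5 matches and 1 match to the CTCF motif at 137 to 126 bases before the start, which overlapped the first of them and stood in 2.02% of all windows. A FOXA match stood in the windows of EHF (its downstream start) and CDX2, where 2.98% of all windows held one.

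All levels below are log2 values as the authors deposited them, and all differences are differences of log2 levels. Any pair of arrays correlated at 0.967 to 0.995 across genes, which are not independent replicates. Epithelial markers (EPCAM, CDH1, KRT8, KRT18, KRT19, CLDN4) had a mean level of 8.48 to 8.61 on the siRNA arrays, 8.40 to 8.50 on the mimic arrays and 8.32 to 8.52 on the NC1 arrays. Fibroblast, leukocyte and endothelial markers averaged between 4.01 and 5.13 on every array, and their single genes spread widely. In the means of the 4 sets of arrays, the lowest fibroblast gene was LUM (2.43 to 2.73) and the highest COL1A1 (6.03 to 6.07), and the lowest leukocyte gene was PTPRC (2.88 to 2.98) and the highest LCP1 (7.99 to 8.45). Of these 16 markers the leukocyte gene LCP1 alone changed, lower with SIN3A siRNA (log2 difference -0.38, limma adjusted p = 0.0226). That call was lost with the array set as a block (the siRNA arrays joined to NC1 1 to 3, the mimic arrays to NC1 4 to 6, adjusted p = 0.0658). The epithelial list had 0 of 6 genes called in either contrast with NC1 (0 at an unadjusted p under 0.05). NC1 replicates 1 to 3 and 4 to 6 differed from each other, as described below, so values against each are given. By title the replicates are biological, but separate cultures are not named, and a p-value then covers array-to-array spread that may in part be technical. In cell populations such as these, fewer cells with a transcript and less of it per cell cannot be told apart.

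SIN3A checks the labels of treated against control arrays, but cannot tell siRNA from mimic arrays. Its levels were 5.88 to 6.17 on the siRNA arrays and 5.93 to 6.25 on the mimic arrays. The NC1 arrays had 6.36 to 7.34, so neither treated group overlapped the control. CFTR had 6.69, 6.66 and 6.50 on the siRNA arrays, 7.54, 7.62 and 7.52 on the mimic arrays, and 7.95, 7.93, 7.46, 8.27, 8.22 and 7.89 on NC1 arrays 1 to 6. All siRNA arrays lay below all NC1 arrays, while the mimic arrays lay within the NC1 range, just above NC1 3. These CFTR values are the background against which the 9 factors are set.

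With SIN3A siRNA 0 of the 9 factors passed the test against NC1 (limma, adjusted over all genes). Across all genes 4.01% were called in this contrast, so few or no calls among 9 genes is near that background. At an unadjusted p under 0.05 there were 2 of 9, EHF and IRF2, where 16.4% of all genes stood at that level. CFTR in the same fit fell to 39.5% of the NC1 level (log2 difference -1.34, SE 0.14, 95% interval -1.63 to -1.04, limma adjusted p = 0.000203). The lowest interval bound of any factor was -0.59, for IRF2, so a fall of the size seen for CFTR lay outside the interval of each of the 9. The differences ranged from -0.30 for IRF2 to 0.06 for FOXA2.

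EHF, an ETS factor of epithelia that is known to bind at CFTR in airway cells, was the factor whose siRNA arrays stood apart. Its level was 7.88, 8.02 and 7.83 on the siRNA arrays, against 8.14, 8.16, 8.03, 8.25, 8.14 and 8.03 on NC1 arrays 1 to 6. The siRNA arrays all lay below all NC1 arrays, although siRNA 2 and the lowest NC1 array were apart by less than 0.01, and the same holds for 3.53% of all genes. The difference was -0.21 (SE 0.08, 95% interval -0.37 to -0.05), 86.5% of the NC1 level, with a limma adjusted p of 0.161 and an exact two-sided permutation p of 0.0119, the smallest that 3 against 6 arrays allow. That permutation p restates the lack of overlap and is not separate support. The difference was nearly the same against either part of the control, -0.19 relative to NC1 1 to 3 (limma adjusted p = 0.244) and -0.22 relative to NC1 4 to 6 (0.135).

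CTCF had 6.33, 6.45 and 6.40 on the siRNA arrays, against 6.59, 6.51, 6.15, 6.89, 6.85 and 6.74 on NC1 arrays 1 to 6. The siRNA values lay inside the NC1 range, above NC1 3 and below the others. The difference was -0.23 (SE 0.13, 95% interval -0.51 to 0.05, limma adjusted p = 0.442). IRF2 had 5.38, 5.54 and 5.50 on the siRNA arrays, against 5.60, 5.70, 5.41, 6.15, 6.00 and 5.75 on the NC1 arrays. Its groups overlapped through NC1 3 alone, and the difference was -0.30 (SE 0.14, 95% interval -0.59 to -0.01, limma adjusted p = 0.294). For both genes the value depended on the control: CTCF was at -0.02 relative to NC1 1 to 3 and at -0.43 relative to NC1 4 to 6. IRF2 was at -0.10 relative to NC1 1 to 3 and at -0.50 relative to NC1 4 to 6. Against NC1 4 to 6 both were called (limma adjusted p = 0.0156 for CTCF and 0.0101 for IRF2), 2 of the 9 factors where 11.4% of all genes were called, and against NC1 1 to 3 there were 0 of 9 where 5.70% of all genes were.

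The other 6 factors differed from NC1 by between -0.09 and 0.06 with the siRNA, and the limma adjusted p lay between 0.695 and 0.982. These were KLF5 (-0.09, 95% interval -0.27 to 0.09), IRF1 (-0.02), CDX2 (-0.01), FOXA1 (0.01), CEBPB (0.04) and FOXA2 (0.06, 95% interval -0.19 to 0.31). For KLF5, a zinc finger factor of proliferating epithelium, the siRNA arrays had 7.19, 7.23 and 7.41, against 7.20 to 7.51 on the NC1 arrays with a median of 7.34. For CDX2 they had 6.46, 6.47 and 6.21, against 6.22 to 6.67 with a median of 6.35. The groups of all 6 overlapped.

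**Figure D1:**
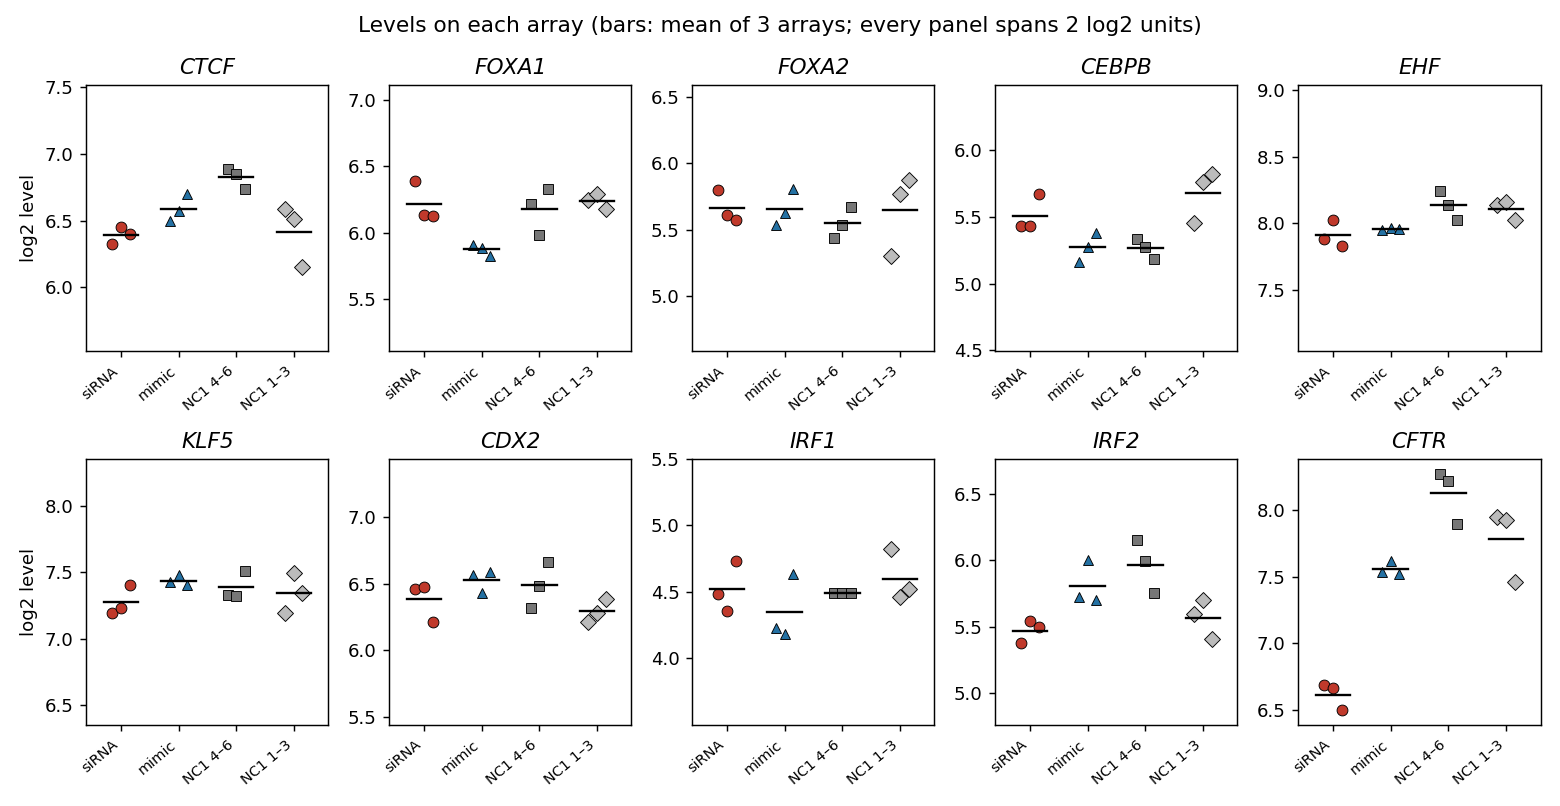
Log2 level of each of the 9 factors and of CFTR on every array. Points are single arrays, bars are means of 3 arrays, the columns are SIN3A siRNA, miR-138 mimic, NC1 4 to 6 and NC1 1 to 3, and every panel spans 2 log2 units. CFTR falls to 6.50 to 6.69 with the siRNA, while the 9 factors each range over at most 0.77 on all arrays.

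With the miR-138 mimic 0 of the 9 factors passed against NC1 either (limma), where 1.04% of all genes were called. FOXA1 and EHF, 2 of 9, had an unadjusted p under 0.05, as had 11.3% of all genes. FOXA1 came closest to the threshold. It had 5.91, 5.89 and 5.83 on the mimic arrays, against 6.25, 6.29, 6.18, 6.22, 5.98 and 6.32 on NC1 arrays 1 to 6. All mimic arrays lay below all NC1 arrays, of which NC1 5 was the lowest. The mimic arrays were at 79.4% of the NC1 level (log2 difference -0.33, SE 0.09, 95% interval -0.52 to -0.14), with a limma adjusted p of 0.106 and an exact two-sided permutation p of 0.0119, again the smallest possible. Here too the permutation p restates the lack of overlap. Against NC1 1 to 3 FOXA1 was at -0.36 and called (limma adjusted p = 0.0364), and against NC1 4 to 6 it was at -0.30 and not called (0.155). Without NC1 5 it was called as well (-0.38, limma adjusted p = 0.0465).

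EHF was below all NC1 arrays with the mimic too, at 7.95, 7.96 and 7.96, with a difference of -0.16 (SE 0.08, limma adjusted p = 0.427, exact permutation p = 0.0357). In all, 2 of 9 factors lay below all NC1 arrays with the mimic, where 2.54% of all genes did, and with the siRNA 1 of 9 did. The siRNA and mimic contrasts share the 6 NC1 arrays, so the 2 low values of EHF are not separate evidence.

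CEBPB, the C/EBP factor induced by inflammatory signals, had 5.16, 5.28 and 5.38 on the mimic arrays, against 5.46, 5.76, 5.82, 5.34, 5.28 and 5.18 on NC1 arrays 1 to 6. The mimic arrays lay below NC1 1 to 3 and among NC1 4 to 6. The difference from all NC1 arrays was -0.20 (SE 0.13, limma adjusted p = 0.650). It was -0.41 and called against NC1 1 to 3 (limma adjusted p = 0.0288) and 0.01 against NC1 4 to 6 (0.995). With FOXA1 this made 2 of 9 factors called lower against NC1 1 to 3, where 8.55% of all genes were called, and 0 of 9 against NC1 4 to 6, where 3.49% were.

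IRF1, which encodes the activating interferon regulatory factor, had 4.23, 4.18 and 4.64 on the mimic arrays, against 4.46 to 4.82 on the NC1 arrays with a median of 4.49, and differed by -0.20 (95% interval -0.45 to 0.05, limma adjusted p = 0.586). Its mean over all arrays lay below the median of all genes (5.29), so it is the one factor that a filter on dim genes removed. CDX2 differed by 0.14, KLF5 by 0.07, FOXA2 by 0.06, IRF2 by 0.04 and CTCF by -0.03 (limma adjusted p 0.689 to 0.966). The widest interval among these 5 was that of IRF2, from -0.25 to 0.33. CFTR with the mimic was at -0.39 (95% interval -0.69 to -0.10, limma adjusted p = 0.244), a size that lies inside the intervals of FOXA1, CEBPB and IRF1. CFTR was called with the mimic against NC1 4 to 6 or with the array set as a block (-0.57, limma adjusted p = 0.0188), without NC1 3 (-0.49, 0.0246), without NC1 3 and NC1 6 (-0.53, 0.0220) and under a second quantile normalization (-0.46, 0.0297).

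**Figure D2:**
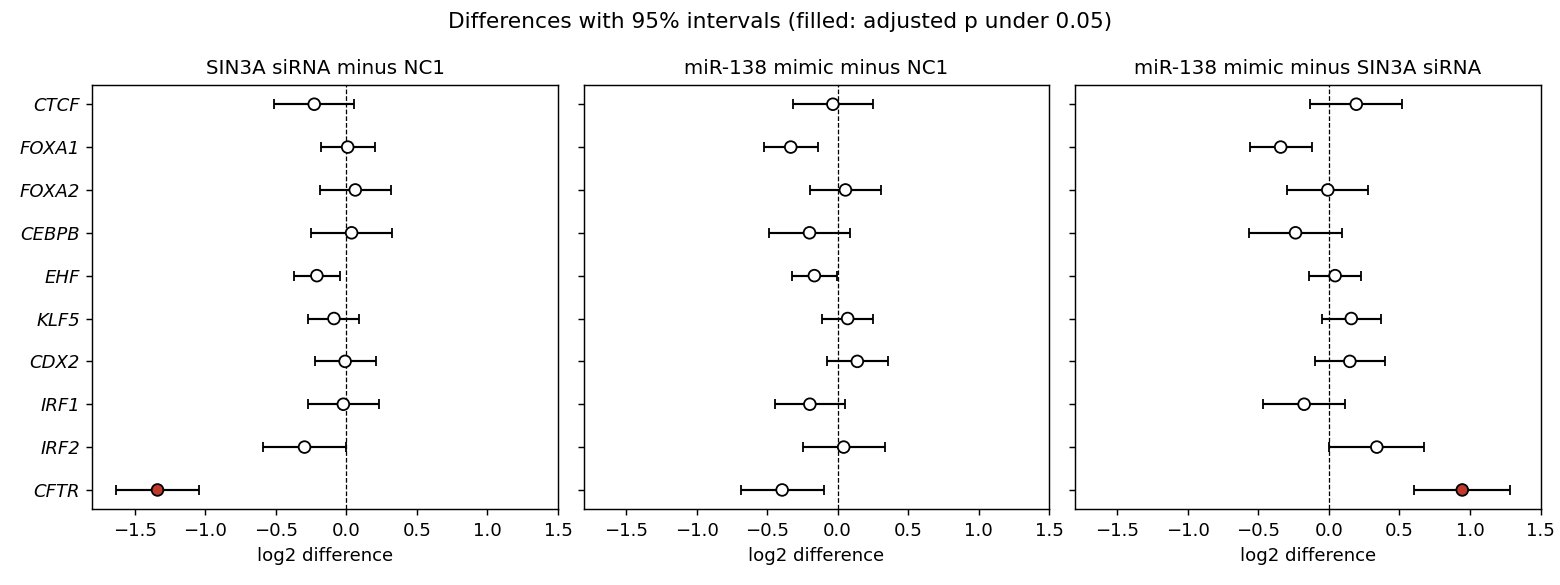
Log2 differences of the 9 factors and of CFTR in the 3 contrasts, with 95% intervals from limma. Filled points passed an adjusted p under 0.05, which only CFTR did, with the siRNA against NC1 (-1.34) and with the mimic against the siRNA (0.95).

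The mimic and the siRNA share no arrays and were compared directly. Of the 9 factors 0 passed (limma), where 1.57% of all genes were called, and FOXA1 and IRF2, 2 of 9, had an unadjusted p under 0.05, as had 13.6% of all genes. FOXA1 was at 5.83 to 5.91 with the mimic and 6.13 to 6.39 with the siRNA, a difference of -0.34 (SE 0.10, 95% interval -0.56 to -0.12, limma adjusted p = 0.117). It passed with only these 6 arrays in the fit (limma adjusted p = 0.0467), 1 of 9 factors. That fit called 1474 of all 18417 genes in place of 289. IRF2 was at 5.70 to 6.00 with the mimic and 5.38 to 5.54 with the siRNA, a difference of 0.34 (SE 0.16, 95% interval 0.0036 to 0.68, limma adjusted p = 0.360). The groups did not overlap for these 2 factors, for CTCF (0.19) or for CEBPB (-0.24), 4 of 9 where 26.4% of all genes were apart in this way. With 3 against 3 arrays the exact permutation p cannot go below 0.1, which is what all 4 had. EHF was 0.04 higher with the mimic (95% interval -0.14 to 0.23) and FOXA2 was at -0.01 (-0.30 to 0.28). CFTR differed by 0.95 (95% interval 0.61 to 1.28, limma adjusted p = 0.00932), but its call was lost with the array set as a block (0.60, adjusted p = 0.120), without siRNA 3 (0.0600) and without mimic 2 (0.0586). With the array set as a block the differences of CTCF (-0.21), IRF2 (-0.06), CEBPB (0.18), CDX2 (-0.05) and FOXA2 (0.09) changed sign. None was called, so their direction between the treatments depends on how the control arrays are used.

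The 2 parts of the NC1 control differed in 3 of the 9 factors, and 10.0% of all genes were called in this contrast. CTCF was at 6.89, 6.85 and 6.74 in NC1 4 to 6 and at 6.59, 6.51 and 6.15 in NC1 1 to 3, 1.33-fold higher (log2 difference 0.41, SE 0.11, limma adjusted p = 0.0244). IRF2 was at 6.15, 6.00 and 5.75 in NC1 4 to 6 and at 5.60, 5.70 and 5.41 in NC1 1 to 3 (0.40, SE 0.12, limma adjusted p = 0.0394). CEBPB fell to 75.0% in NC1 4 to 6 of its level in NC1 1 to 3, with 5.34, 5.28 and 5.18 against 5.46, 5.76 and 5.82 (-0.42, SE 0.11, limma adjusted p = 0.0223). At an unadjusted p under 0.05 these were the same 3 of 9, where 22.6% of all genes stood. The arrays of the parts did not overlap for these 3 genes, which was so for 22.4% of all genes. The calls of the 3 genes were lost when only the 6 NC1 arrays entered the fit, which called 973 genes in place of 1850, and also without NC1 3 or NC1 5. Without NC1 4 the calls of CTCF and IRF2 were lost, and without NC1 2 or NC1 6 that of CEBPB. The IRF2 call stood nearest the threshold and was also lost without NC1 1, siRNA 2, siRNA 3 or mimic 1, and under a second quantile normalization (0.39, adjusted p = 0.0528). The other 6 factors lay between -0.11 (IRF1) and 0.19 (CDX2), with limma adjusted p of 0.305 to 0.889. CFTR was 0.35 higher in NC1 4 to 6 (limma adjusted p = 0.107) and SIN3A 0.58 higher (0.00574).

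**Figure D3:**
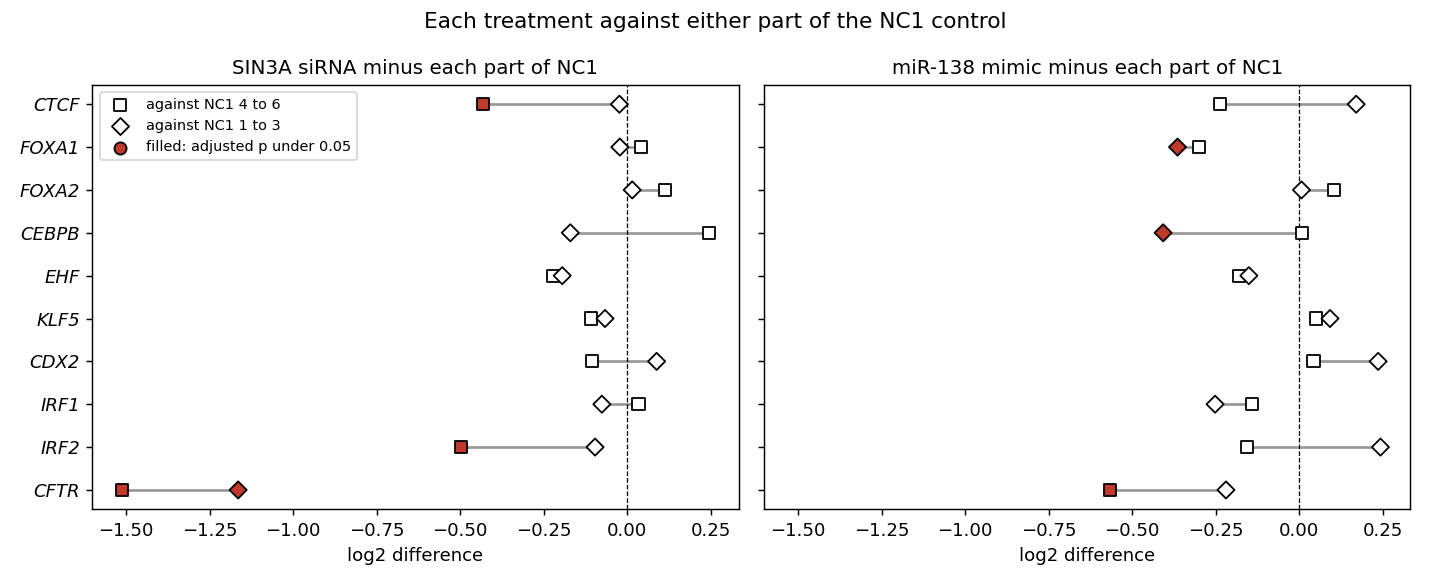
Log2 differences of each treatment from NC1 4 to 6 (squares) and from NC1 1 to 3 (diamonds), joined by a line for each gene. Filled symbols passed an adjusted p under 0.05. The lines are long for CTCF, CEBPB and IRF2 and short for EHF, FOXA1 and KLF5.

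Set beside CFTR array by array, CTCF, IRF2 and EHF shared a feature with it inside the control: NC1 3 was the lowest of NC1 1 to 3 and NC1 6 the lowest of NC1 4 to 6. This held for 3 of 9 factors, for CFTR and for SIN3A, and for 21.1% of all genes. FOXA2 and CDX2 had the reverse, with NC1 3 and NC1 6 the highest of their parts, as had 24.8% of all genes. Among the treated arrays the order was different. CTCF was at 6.33 to 6.45 with the siRNA, above the 6.15 of NC1 3, while CFTR was at 6.50 to 6.69 there and at 7.46 in NC1 3. FOXA1 was lowest on the mimic arrays, where CFTR lay between the siRNA and most NC1 arrays. KLF5, with a range of 0.32 over all 12 arrays, varied least of the 9, and IRF2, with 0.77, varied most. CFTR itself ranged over 1.78. Because the arrays fall into groups, no correlation of a factor with CFTR over the 12 arrays is given.

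**Figure D4:**
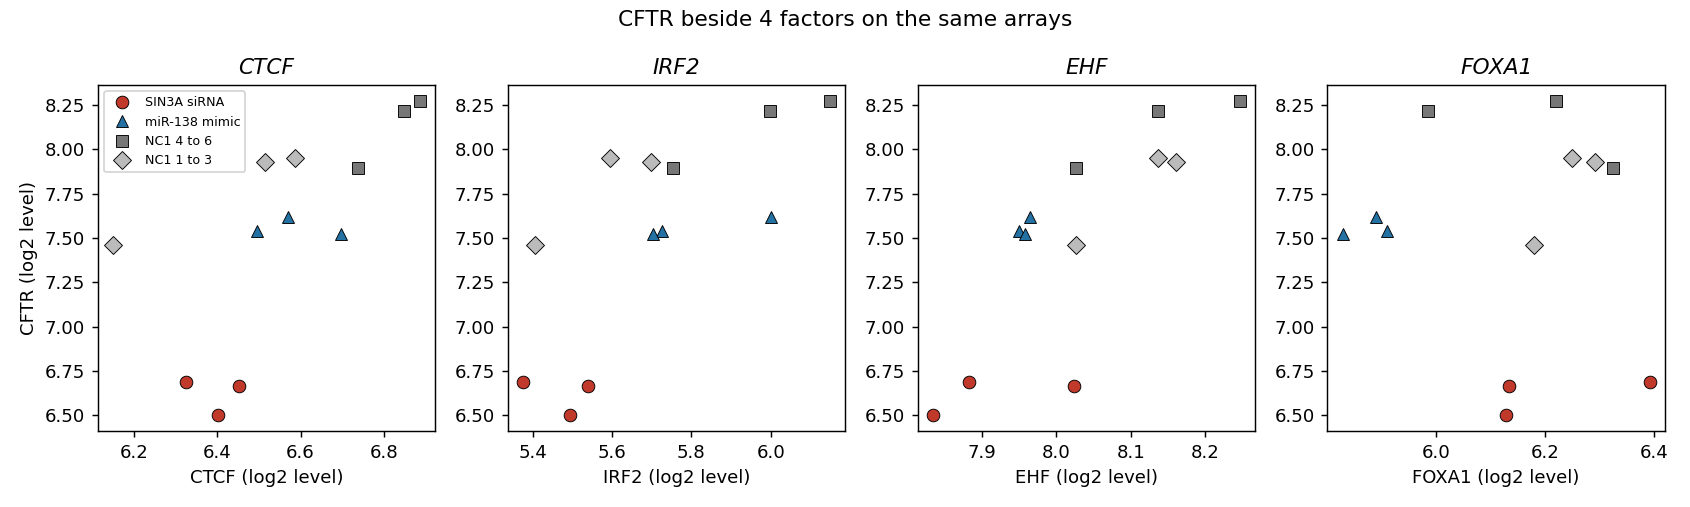
Log2 level of CFTR against that of CTCF, IRF2, EHF and FOXA1 on the same array, with symbols for the 4 sets of arrays. The siRNA arrays have CFTR at 6.50 to 6.69. Their CTCF levels lie within the NC1 range, and those of IRF2 and FOXA1 overlap it. Their EHF levels lie below every NC1 array (7.83 to 8.02 against 8.03 to 8.25).

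Genes whose profile was most like a factor over all 12 arrays are given by Pearson's r as a description, since the arrays share groups and processing. They were TBC1D15 and ERBIN for CTCF (0.972 and 0.970), PAM and CMTM6 for IRF2 (0.965 and 0.957), PRLH and PYGO1 for CEBPB (0.958 and 0.947) and NALCN and GNA11 for CDX2 (0.941 and 0.892). For EHF they were CCDC14 and SYNCRIP (0.915 and 0.914), for KLF5 C10orf95 and MIXL1 (0.926 and 0.901), and for FOXA2 PCDHA11 and TRIM35 (0.896 and 0.881). For FOXA1 they were NLRP6 and EIF4EBP1 (0.867 and 0.861) and for IRF1 RFX8 and KLF3-AS1 (0.871 and 0.866). For CFTR they were FAT4 and PRRC2C (0.979 and 0.974), and a list of 2 genes cannot show whether a factor followed CFTR.

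Partners and relatives of the factors were counted in the same fits. Across all genes 4.01% were called with the siRNA and 1.04% with the mimic, and 16.4% and 11.3% had an unadjusted p under 0.05. Between the parts of NC1 10.0% of all genes were called, and 3.18% were called lower in NC1 4 to 6. Of 13 CTCF partners, among them the cohesin ring genes SMC1A, SMC3 and RAD21, 0 passed with the siRNA (1 at an unadjusted p under 0.05) and 0 with the mimic (0 at an unadjusted p under 0.05). Their median differences were -0.08 and -0.03, beside -0.01 for all genes in both contrasts. In NC1 4 to 6 the cohesin gene SMC1A was higher than in NC1 1 to 3, with 7.34 ± 0.04 against 6.67 ± 0.13 (SD, n = 3 each, log2 difference 0.67, limma adjusted p = 0.000497), 1 of 13 partners, and the list's median was 0.20. Of 27 relatives from the FOXA, C/EBP, ETS, KLF, CDX and IRF families 0 passed with the siRNA (6 at an unadjusted p under 0.05). With the mimic 1 rose, KLF6, a Krüppel-like factor induced by injury, with 5.93 ± 0.02 (SD, n = 3) against 5.61 ± 0.05 in NC1 (SD, n = 6, log2 difference 0.32, limma adjusted p = 0.0412). The KLF6 call was lost with the array set as a block (adjusted p = 0.0526) and in 10 of the 12 fits that left out 1 array (highest adjusted p = 0.202). In NC1 4 to 6, 0 relatives were higher and 4 lower: the stress factor gene DDIT3 (log2 difference -0.75), CEBPG, a C/EBP partner without an activation domain (-0.59), KLF4 (-0.44) and KLF10 (-0.34). The calls of KLF4 and KLF10 were lost with NC1 arrays alone in the fit (adjusted p = 0.0971 and 0.109) and in 3 and 4 of the fits without 1 array.

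Of 21 other factors studied at CFTR, 1 fell with the siRNA and the same 1 with the mimic, FOXM1, a forkhead factor of the cell cycle. Among all genes 4.01% were called with the siRNA and 1.04% with the mimic. FOXM1 was at 5.69 ± 0.13 with the siRNA, against 6.09 ± 0.13 in NC1 (SD, n = 3 and 6, log2 difference -0.39, limma adjusted p = 0.0383). It was at 5.42 ± 0.17 with the mimic (SD, n = 3, -0.67 from NC1, limma adjusted p = 0.00472). With the array set as a block the mimic call stood (-0.76, adjusted p = 0.000425) and the siRNA call did not (-0.31, adjusted p = 0.107). The siRNA call was also lost in 7 of the 12 fits without 1 array. CREB1, whose motif is in the CFTR window above, was at -0.41 with the siRNA (limma adjusted p = 0.194) and at 0.23 with the mimic (0.657). It was 0.55 higher in NC1 4 to 6 than in NC1 1 to 3 (limma adjusted p = 0.00444), as was the GC box factor SP1 (0.55), while the AP-1 subunit gene JUN was lower (-0.52). The chromatin remodeller gene SMARCC1 was 0.29 higher (limma adjusted p = 0.0473), a call lost in 10 of the 12 fits without 1 array. Of the 8 genes that neighbour CFTR on its chromosome, 0 passed with the siRNA (2 at an unadjusted p under 0.05) and 0 with the mimic (0 at an unadjusted p under 0.05), by limma. Of all genes 16.4% and 11.3% stood at that unadjusted level in these contrasts. ASZ1 and CTTNBP2, which flank CFTR, were at 0.20 and -0.14 with the siRNA (limma adjusted p = 0.296 and 0.453).

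Known targets of the factors were counted as well, beside 4.01% of all genes called with the siRNA and 1.04% with the mimic. Few or no calls in lists of this size is thus near the background. At an unadjusted p under 0.05 stood 16.4% and 11.3% of all genes in these contrasts. Of 21 measured targets of IRF1 and IRF2, 0 passed with the siRNA (3 at an unadjusted p under 0.05) and 0 with the mimic (4 at that level). The chemokine gene CXCL10 was higher in mimic than in siRNA arrays (3.77 ± 0.12 against 3.17 ± 0.08, SD, n = 3 each, log2 difference 0.59, limma adjusted p = 0.0326), a call lost in 6 of the 12 fits without 1 array. Both levels lay below the median of all genes (5.29). With only these 2 groups in the fit 1 of the 21 targets was called higher and 3 lower, where 1474 of 18417 genes were called. Of 11 CDX2 targets and of 10 FOXA targets 0 passed with the siRNA or the mimic by limma, with 0 at an unadjusted p under 0.05 except 1 CDX2 target with the mimic. Of 16 CEBPB targets 0 passed with the siRNA (2 at an unadjusted p under 0.05) and 0 with the mimic (1 at that level). Some of these differences had a wide SE in both contrasts, 0.84 for SAA1 and 0.57 for IL6, so sizeable shifts could go uncalled. Between mimic and siRNA 0 of the 16 passed. With only these 2 groups in the fit 2 were called higher and 3 lower, where again 1474 of 18417 genes were called. Of 8 KLF5 targets 0 passed with the siRNA (1 at an unadjusted p under 0.05). With the mimic 1 fell, BIRC5 (survivin, a gene of cell division), with 8.39 ± 0.16 against 8.96 ± 0.13 in NC1 (SD, n = 3 and 6, log2 difference -0.56, limma adjusted p = 0.00991). Its call was lost in 2 of the 12 fits without 1 array (highest adjusted p = 0.0905). BIRC5 was also lower with the mimic than with the siRNA (-0.71, limma adjusted p = 0.00622).

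Between the parts of the control 10.0% of all genes were called, and the counts of targets are given beside that share. Of 16 CEBPB targets 6 were lower in NC1 4 to 6 than in NC1 1 to 3 and 0 higher, where 3.18% of all genes were called lower, and their median difference was -0.33, beside -0.02 for all genes. The acute phase genes SAA1 and SAA2 were 12.7-fold and 4.98-fold lower in NC1 4 to 6, the cytokine gene IL6 5.51-fold and the complement gene C3 3.44-fold. CEBPB itself was lower there too, and a link between it and these genes was not tested. On the mimic arrays CEBPB averaged 5.27, beside 5.26 in NC1 4 to 6. There IL6 and CXCL8 differed from all NC1 arrays by 0.95 and 1.18, and SAA1, SAA2 and C3 by -1.01, -0.84 and -0.66. None of these mimic differences passed (limma). Of 21 targets of IRF1 and IRF2, 6 were lower and 0 higher in NC1 4 to 6, with a median of -0.22. Among them were the immunoproteasome gene PSMB9 (log2 difference -1.56), the guanylate binding protein gene GBP2 (-1.17), the RNA sensor gene TLR3 (-0.73) and B2M, the light chain of MHC class I (-0.68). IRF1 itself had 4.49 on each of NC1 4 to 6 against 4.46 to 4.82 in NC1 1 to 3 (limma adjusted p = 0.677), and IRF2 was higher. The secretory gene AGR2 of the FOXA list was lower (-0.94), while LGALS4 of the CDX2 list (0.39) and FGFBP1 (0.66) and CCNB1 (0.39) of the KLF5 list were higher. The CCNB1 call was lost with NC1 arrays alone in the fit (adjusted p = 0.102). The epithelial marker KRT8 was 0.39 higher in NC1 4 to 6, 1 of 6 epithelial markers (limma adjusted p = 0.0402, and 0.0811 with NC1 arrays alone in the fit), and its part in these differences was not tested. With NC1 arrays alone in the fit 6 CEBPB targets and 4 targets of IRF1 and IRF2 were still called lower.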

How the data were processed

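The 12 arrays were grouped by sample title into SIN3A siRNA (n = 3), miR-138 mimic (n = 3) and NC1 (n = 6). The authors deposited log2 levels by probe set. The submitters' processing notes name RMA and Partek 6.3, with no role for either, and the sources used here name no genome build. Values ran from 1.43 to 13.2, the medians of arrays from 5.09 to 5.16, and nothing further was done to them. Arrays give no counts, so their number limits the precision. In 39.0% of genes, 3 of the 9 factors among them, at least 2 arrays had an equal value.

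There were 33297 probe sets, 19460 of them with a single gene symbol, 1754 with more than 1 and 12083 without any. A gene took the values of its single-symbol probe set of highest mean, which gave 18417 genes, and the 9 factors, CFTR and SIN3A had 1 probe set each. Group means were fitted on all 12 arrays with limma 3.58.1 (R 4.3.3). Genes with a Benjamini-Hochberg adjusted p under 0.05 over all genes were called. The parts of NC1 came from a fit of 4 group means. The array set used as a block joins SIN3A siRNA with NC1 1 to 3 and the mimic with NC1 4 to 6, which the labels do not state. Against NC1 it gives the siRNA difference from NC1 1 to 3 and the mimic difference from NC1 4 to 6, so it repeats those settings. The replicate block gives differences from NC1 1 to 3, since NC1 4 to 6 share no replicate number with treated arrays. Exact permutation tests were two-sided and not adjusted for the number of factors. They treated the arrays of a contrast as exchangeable, although the parts of NC1 differed. The fit was tested on simulated data. Alternatives covered the control arrays, blocks, normalization, probe sets, dim genes, arrays in the fit, the variance trend and each array left out.

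Named are the 9 factors, CFTR, SIN3A, up to 4 called genes per list and contrast, the 2 genes of highest r for each factor, and, chosen after their values were seen, CREB1, ASZ1 and CTTNBP2 where they were not called. The factors, lists, parts of NC1 and alternatives were chosen with earlier results of these data known.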

Additional observations from a re-analysis of the deposited data

Results flagged for a closer look

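IRF1 was at 4.82 in NC1 1, far above the other NC1 arrays, of which the next was at 4.52. The gap was 0.831 of the range of the 6 arrays, above Dixon's critical value of 0.625. Of 11 genes tested this way (the 9 factors, CFTR and SIN3A), this was the only one, and chance alone flags about 1 in 20 groups. IRF1 was dim, and without NC1 1 it stayed uncalled in every contrast.

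CFTR differed between the treatments, 0.95 higher with the miR-138 mimic than with SIN3A siRNA (limma adjusted p = 0.00932). The difference was tested directly, on arrays that the groups do not share. With the array set as a block it was 0.60 and no longer passed (adjusted p = 0.120). It held in 3 of 3 arrays, since all mimic arrays lay above all siRNA arrays. Of the 9 factors 0 differed beyond the threshold in this contrast.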

How the results depend on the processing

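Between the parts of NC1, 3 factors were called, against 0 with only the 2 groups compared in the fit, 1 (IRF2) without both NC1 3 and NC1 6, and 0 to 3 when 1 array was left out. With the siRNA against NC1 0 were called, 0 to 0 with 1 array left out, and 2 against NC1 4 to 6 alone. With the mimic 0 were called, 0 to 1 with 1 array left out, 2 against NC1 1 to 3 alone and 2 (FOXA1 and CEBPB) with the replicate block. The replicate block has the same log2 differences as NC1 1 to 3 alone, so these settings are not separate checks. Between mimic and siRNA 0 were called, 0 to 0 with 1 array left out, and 1 (FOXA1) with only those 2 groups in the fit. Same-numbered arrays of NC1 1 to 3, siRNA and mimic deviated from their group means with correlations of -0.10 to 0.03. No pairing by replicate number was thus seen among them, and a pairing of NC1 4 to 6 with treated arrays was not checked. The replicate block changed no other call of a factor. Alternatives on the low NC1 arrays and for the parts of NC1 were chosen after seeing the data. Of 734 values of single genes under alternatives 650 kept direction and side of the threshold. A further 8 passed it newly, 20 no longer did and 56 changed sign, 41 of them with both values under 0.1 in size. Many could not change direction, since leaving out an array of a group outside the contrast, for example, does not move the log2 difference. With the siRNA, the array set as a block, NC1 1 to 3 alone and the replicate block gave 0.088 for CDX2, -0.17 for CEBPB and -0.022 for FOXA1. CDX2 was at 0.058 without NC1 3 and NC1 6, IRF1 at 0.034 against NC1 4 to 6, and a second quantile normalization gave -0.014 for FOXA1 and 0.0093 for IRF1. With the mimic, CTCF was at 0.17 against NC1 1 to 3 and with the replicate block, while NC1 4 to 6 and the array set as a block gave 0.0085 for CEBPB and -0.16 for IRF2, and IRF2 was at -0.050 without NC1 3 and NC1 6. Between mimic and siRNA the array set as a block gave -0.045 for CDX2, 0.18 for CEBPB, -0.21 for CTCF, 0.089 for FOXA2, -0.061 for IRF2 and -0.53 for SIN3A. Between the parts, a second quantile normalization gave -0.14 for EHF and -0.087 for KLF5, and KLF5 was at -0.021 without NC1 3 and NC1 6. With 1 array left out, siRNA differences ranged from -0.054 to 0.076 for CDX2, -0.042 to 0.11 for CEBPB, -0.077 to 0.054 for FOXA1, -0.0061 to 0.12 for FOXA2 and -0.12 to 0.061 for IRF1. Those of the mimic ranged from -0.13 to 0.020 for CTCF, -0.019 to 0.12 for FOXA2 and -0.053 to 0.12 for IRF2, and between mimic and siRNA from -0.082 to 0.062 for FOXA2 and -0.036 to 0.13 for SIN3A. Between the parts they ranged from -0.026 to 0.084 for EHF, -0.14 to 0.0325 for FOXA1, -0.27 to 0.015 for FOXA2, -0.18 to 0.00013 for IRF1 and -0.032 to 0.12 for KLF5. Counts over all genes moved more: 739 with the siRNA against 357 with 2 groups in the fit, 2106 against NC1 4 to 6 and 165 to 1033 with 1 array left out. With the mimic 192 stood against 92, 1575 (NC1 1 to 3), 642 (NC1 4 to 6 and the array set as a block), 1281 (replicate block) and 39 to 264. Between mimic and siRNA 289 stood against 1474 with 2 groups in the fit, 830 with the replicate block, 635 without NC1 3 and NC1 6 and 58 to 568, and between the parts 1850 stood against 973 and 1062 to 2382. The second quantile normalization moved the split of siRNA calls to 379 higher and 384 lower, beside 433 and 306, that of the mimic to 125 and 120, beside 118 and 74, and that of the parts to 1051 and 832, beside 1264 and 586. The cause of these changes was not tested.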
